A study of Homo sapiens with 6 samples.

Results

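The 48 genes described here are the protein-coding genes of the count table with a symbol that begins with PSMA, PSMB, PSMC, PSMD, PSME, PSMF or PSMG and a number, and with a mean of at least 10 counts over the 6 libraries. They were taken from a table of 28491 genes, 16530 of them protein-coding. Of these 48 genes, 46 encode proteasome subunits, proteasome activators, a proteasome inhibitor or assembly factors. The other two, PSMC3IP and PSME3IP1, met the rule by their symbols and encode proteins that were named for binding PSMC3 and PSME3. The count minimum left out PSMB11, the thymus-specific subunit, with a mean of 0.333 counts. The members nearest above it were PSMA2, with a mean of 13.3 counts, and PSMB8, with 17.2.

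The proteasome is the barrel-shaped protease that degrades proteins tagged with ubiquitin. Its 20S core has outer rings of alpha subunits, which form the gate, and inner rings of beta subunits, of which PSMB5, PSMB6 and PSMB7 cut the substrate. The 19S cap binds ubiquitin chains, removes them and unfolds the substrate, through a base with the ATPases PSMC1 to PSMC6 and a lid of PSMD subunits. In cells exposed to interferon the catalytic subunits PSMB8, PSMB9 and PSMB10 take the places of PSMB5, PSMB6 and PSMB7 and form the immunoproteasome, which makes peptides for MHC class I. Dividing cells, colorectal carcinoma cells among them, carry much proteasome.

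RNA was sequenced from HCT116 cells, an established human colorectal carcinoma line, 48 h after transfection with a control plasmid (NC, 3 libraries) or with a plasmid for overexpression of RBM47, an RNA-binding protein (RBM47-OE, 3 libraries). Both groups received a plasmid with the same transfection reagent, no other allele or drug is named for either, and the extra RBM47 came from the promoter of the plasmid in 1 cell line. The sample labels name pcDNA3.1-3xFlag-RBM47, DMEM and a NEBNext directional kit, whereas the methods of the study name pIRES-hrGFP-1a, a KC stranded kit and McCoy's 5A. Neither source says whether the replicates were separate cultures, so p-values measure the spread between these libraries only.

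Libraries held 26792409 to 35477983 counts on genes. RBM47 had 1.91, 2.33 and 1.94 FPKM in NC replicates 1, 2 and 3 and 131, 130.4 and 127 FPKM in RBM47-OE replicates 1, 2 and 3, which matched the labels (log2 fold change 5.90). The epithelial markers EPCAM, CDH1, CLDN4, KRT8, KRT18 and KRT19 had a mean of at least 13.1 FPKM in NC, whereas the blood cell and endothelial markers CD3E, CD14, LYZ, CDH5, KDR, PECAM1 and VWF reached at most 0.163 FPKM. Of the fibroblast markers COL1A1, COL3A1 and PDGFRB, COL1A1 was highest with 1.53 FPKM. The RBM47-OE libraries differed from NC along the GC content of the exons. Over 16228 tested genes the difference of RBM47-OE replicates 1, 2 and 3 from NC had a Spearman's rho of -0.41, -0.59 and -0.67 with exonic GC content, whereas the rho of the NC libraries, each set against the other two, was -0.16, 0.13 and 0.04. RBM47-OE replicate 1 thus stood nearer to NC, and the main counts below are also given without it. Values from a fit in which the GC trend of each library was subtracted (the GC offset) stand beside the main ones.

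All 48 genes were among the 16260 genes tested with edgeR's quasi-likelihood test, and a gene was called at an adjusted p under 0.05. In RBM47-OE, 10 of the 46 proteasome genes were higher and 15 were lower than in NC, where 19.1% of all genes tested were called higher and 16.9% lower. The other 21 did not pass. In bulk libraries a change in every cell and a change in the transfected cells alone cannot be told apart. Genes that rose were led by PSMD1, PSMC6 and PSMC2 of the 19S base, whereas 5 of the 7 beta subunits of the 20S core, the activators PSME1 and PSME3 and the immunoproteasome subunit PSMB9 fell. No called change reached a fold of 1.5. The rises ran from 15.9% (PSMD12) to 37.5% (PSMD1). PSMB4 fell by 12.5% and PSMB9 fell by 26.8%, the smallest and the largest fall called. At the thresholds of the study, an unadjusted p under 0.01 and a fold change over 1.5, 0 of the 48 genes passed in edgeR, where 1.51% of all genes passed as higher and 0.873% as lower. The median log2 fold change of the 46 genes was -0.079, and that of all genes tested was 0.00.

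With the GC offset, 2 of the 46 genes were higher and 13 lower, against 6.01% and 8.46% of all genes. The calls in both fits and in a fit with GC content taken from the canonical transcript alone (3 higher and 10 lower, against 5.39% and 7.97% of all genes) numbered 2 higher, PSMC1 and PSMD7, and 8 lower, PSMB2, PSMB3, PSMB9, PSMC4, PSMD2, PSME1, PSME3 and PSMF1. The canonical transcript is the 1 transcript per gene that the annotation sets as its reference. Without RBM47-OE replicate 1, 13 genes were higher and 18 lower in the fit without an offset. Leaving out NC replicate 2 left 9 higher and 9 lower, and the calls for PSMB4, PSMB9, PSMD3, PSMD9, PSMD12, PSMG3 and PSMF1 were lost. The shares of all genes called with a library left out are not given here. Whether such gains and losses are particular to the members was therefore not tested.

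**Figure D1:**
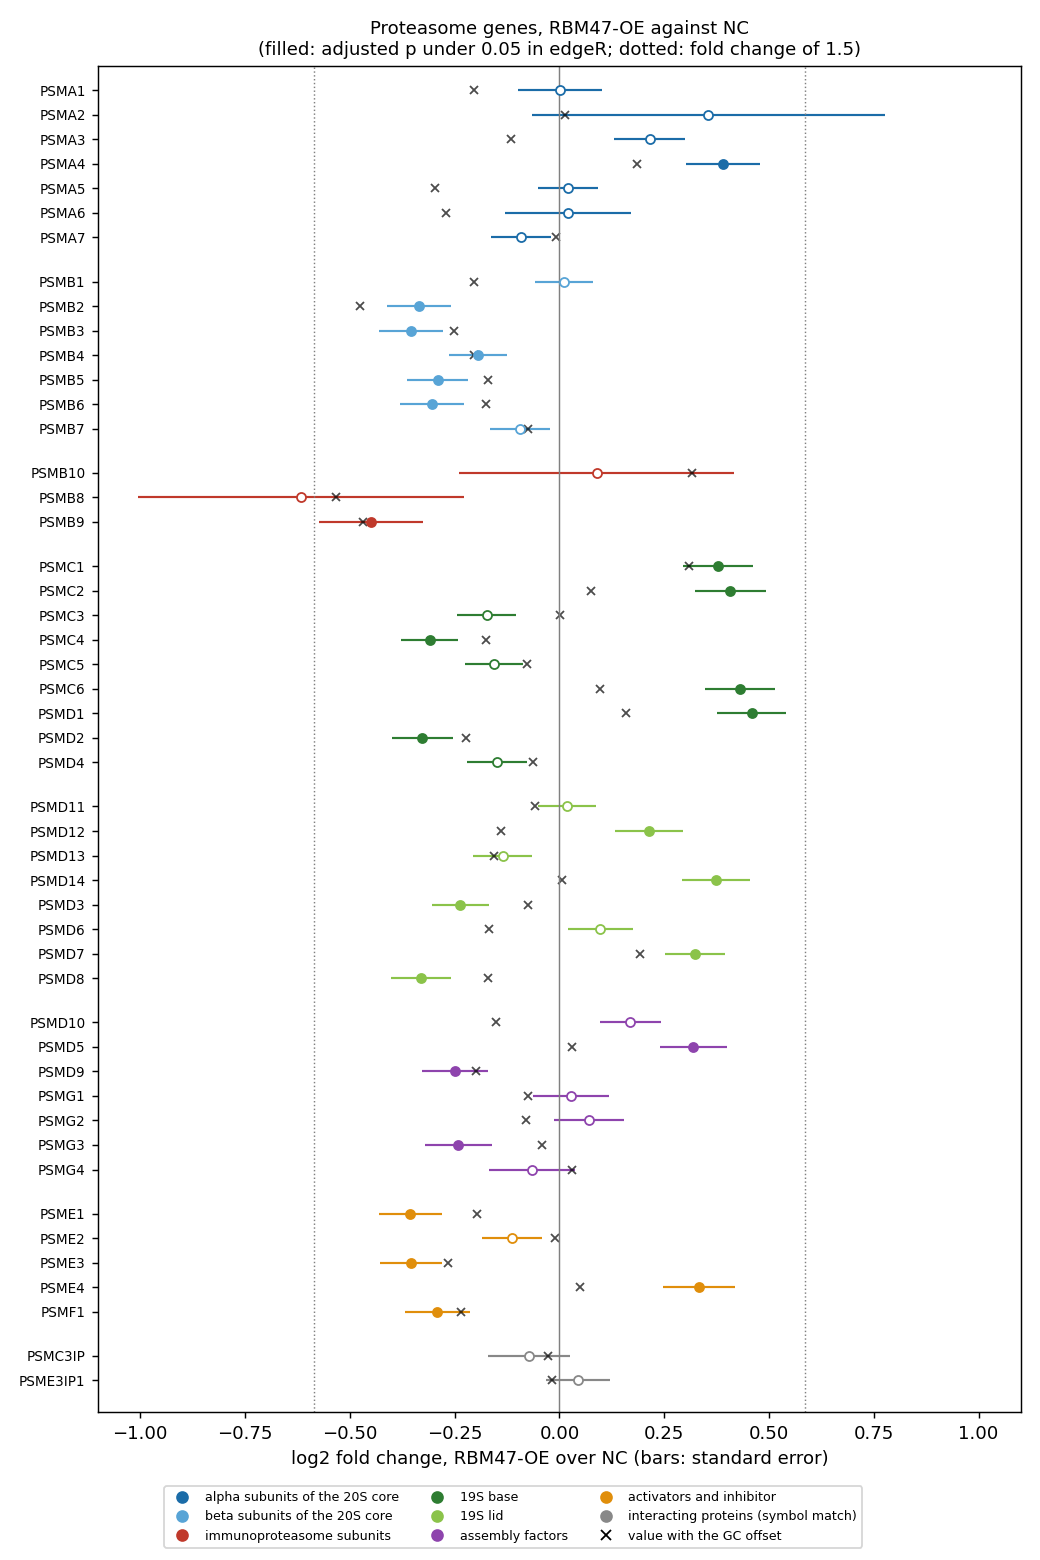
Log2 fold change of RBM47-OE over NC for each of the 48 genes (horizontal axis), grouped by role, with bars for the standard error of the edgeR fit on 3 libraries per group. Filled circles mark an adjusted p under 0.05, crosses mark the value with the GC offset, and the dotted lines mark a fold change of 1.5, which only PSMB8 exceeds, without passing the test.

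The calls followed GC content. Exonic GC content had a median of 39.8% in the 10 genes that rose, 51.5% in the 15 that fell and 46.3% in the other 23. Of the 13 members under 42% GC, 7 were higher and 0 lower. Among the 22 members over 48% GC, 0 were higher and 12 lower. The 13 members between these limits held 3 higher and 3 lower genes. Calls of all genes tested were not counted within these limits. Across the 48 members Spearman's rho between GC content and log2 fold change was -0.75, and across 16228 genes it was -0.63. The trend was thus not particular to the members. Once the offset was applied, the rho across the members was -0.16. These are descriptions across genes of the same 6 libraries, and the part of GC content in any call was not tested.

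**Figure D2:**
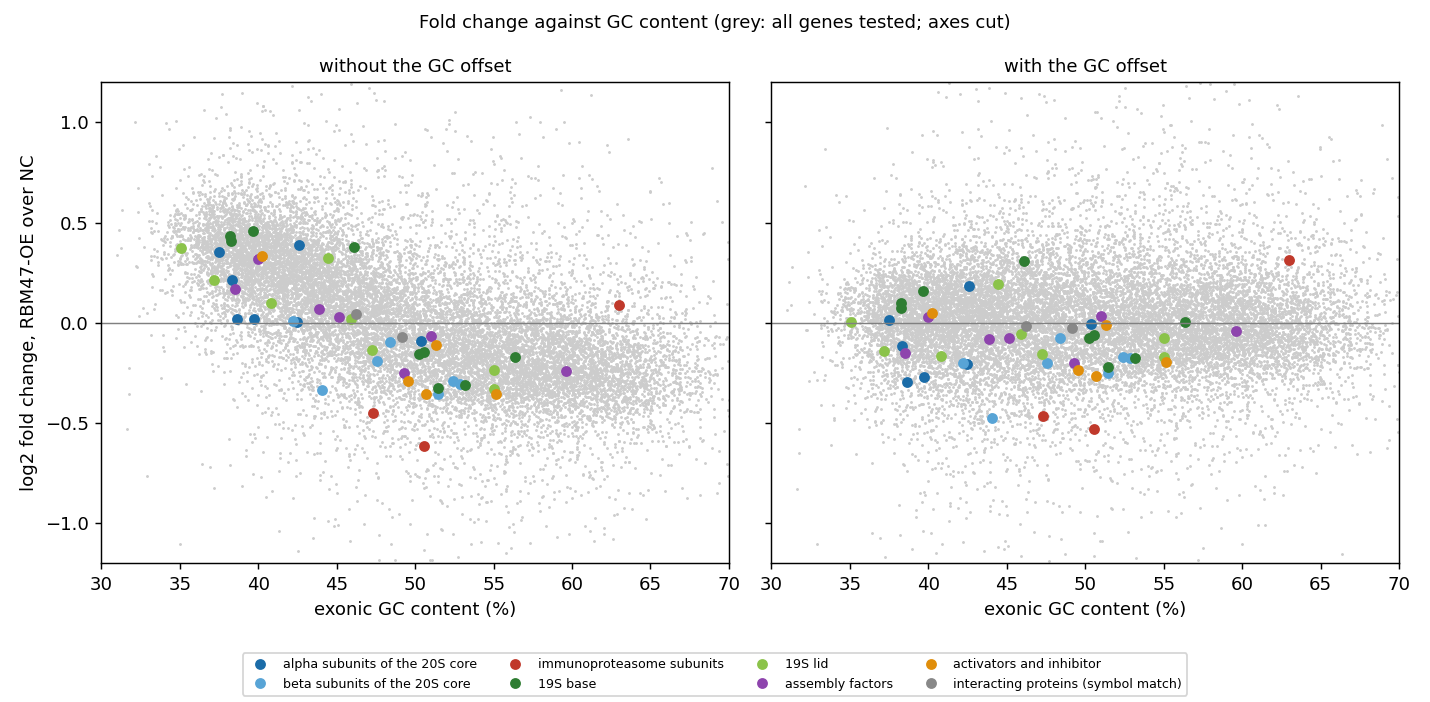
Log2 fold change of RBM47-OE over NC (vertical axis) against the GC content of each gene's exons in percent (horizontal axis), without the GC offset on the left and with it on the right. Grey points are all genes tested and coloured points the 48 genes by role, which fall along the grey trend on the left (rho -0.75) and lie mostly near or under 0 on the right (rho -0.16).

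The sequence near the start sites was read to see what the genes share besides their products. RefSeq promoters of GRCh38.p14, from 250 bases before to 50 after each start, were found for 40 of the 46 genes. Those without an entry were PSMA7, PSMB1, PSMB6 and PSMB7 of the 20S core, PSMD4 of the 19S cap and the assembly factor PSMG3. The 20S core was thus searched less fully than the 19S cap. Each motif was searched on both strands, and no motif searched is contained in another. The letters CCGGAAG, the core bound by ETS family factors, were in 12 of 40 promoters (30%), against 10.7% of all 27305 promoters. Of these 12 genes, 9 belonged to the 19S cap, with 16 matched members, and 0 to the 20S core, with 10. They were in 7 of the 10 genes that rose, 2 of the 13 matched genes that fell and 3 of the 17 others. Of the 7 that rose, PSMC1 and PSMD7 alone stayed called with the GC offset. The same split was not made over all genes tested, and a link of motif and call was not tested. The windows below are from genes of the 19S cap that rose, except PSMD8, which fell, and capitals mark the motif on either strand. Windows of PSMD12, which rose, and of PSMD6 and PSMD13, which were not called, are not printed.

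PSMC1, chr14:90256553-90256579: ggtggaggaaCTTCCGGcagcggcagc
PSMC2, chr7:103347642-103347668: gaagacaccaCCGGAAGcaaggaaggt
PSMC6, chr14:52707083-52707109: acggggccaaCCGGAAGgggagggctc
PSMD14, chr2:161308411-161308437: actagtgaacCCGGAAGtgcttcgcgg
PSMD7, chr16:74296802-74296828: ggctgacgaaCCGGAAGaagaggaact
PSMD8, chr19:38374544-38374570: caaaagccaaCTTCCGGtcaccatctt

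The letters TGACNNNGC, the core of the element bound by NFE2L1, the factor that raises proteasome gene expression when proteasome activity falls, were in 13 of 40 promoters (32.5%) and in 13.6% of all promoters. They occurred in 4 of the 10 genes that rose, 6 of the 13 that fell and 3 of the 17 others, a split likewise not made over all genes. CCAAT boxes were in 45% of the members' promoters and 35.7% of all. For CACGTG, the E-box, the shares were 7.5% and 7.43%. A match describes letters in a window and not a bound site. The windows below show TGACNNNGC in genes that fell and, for PSMD12, in a gene that rose.

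PSMB3, chr17:38752627-38752655: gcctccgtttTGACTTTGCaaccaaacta
PSMB9, chr6:32854034-32854062: gggcggggctGCCTCGTCActtgtctcgg
PSMC4, chr19:39971182-39971210: acagaggccgGCTTGGTCActatggagga
PSMD3, chr17:39980760-39980788: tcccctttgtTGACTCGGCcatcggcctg
PSME1, chr14:24136098-24136126: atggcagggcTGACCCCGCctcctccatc
PSMD12, chr17:67366724-67366752: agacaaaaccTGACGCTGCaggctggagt

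Levels were compared between genes as CPM, the counts of a gene scaled to library size by TMM, per kb of canonical transcript. The deposited FPKM divide by the length of all annotated exons of a gene, including those of transcripts that HCT116 cells may not make, which moved the order of the genes. In NC, PSMB3 was highest with 449 ± 21.5 CPM per kb (SD, n = 3), followed by PSMB1 with 361 ± 10.8 and PSMB4 with 323 ± 8.49. PSMA7, PSMB7 and PSMB6 came next with 288 ± 13.6, 288 ± 13.6 and 281 ± 17.2, neighbours that did not differ beyond their spread. With PSMA1, PSMA2 and PSMA6 set aside, the remaining core subunits ran from PSMB5 (261) through PSMA3 (100.1), PSMB2 (62.8) and PSMA5 (39.5) to PSMA4 (33.2). The 19S subunits spanned much of the same range, from PSMD2 (264), PSMD4 (215) and PSMD8 (202) down to PSMC6 (23.05). Assembly factors, which leave the finished particle, lay between 14.4 (PSMD5) and 39.1 (PSMG2). The immunoproteasome subunits were low, at 9.12 CPM per kb for PSMB9, 0.878 for PSMB10 and 0.611 for PSMB8.

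**Figure D3:**
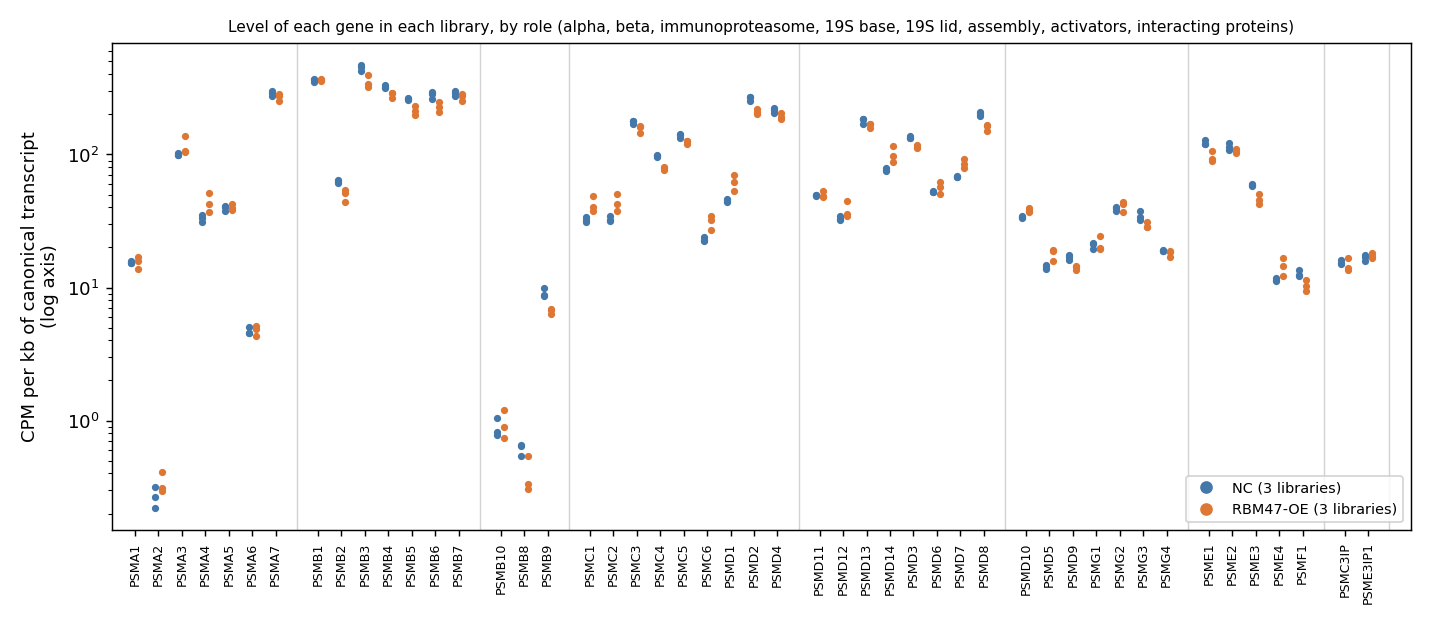
Level of each gene in each of the 6 libraries, as CPM per kb of canonical transcript on a log axis, with NC in blue and RBM47-OE in orange and the genes ordered by role. The group means of PSMB1 and PSMB3 to PSMB7 are at least 214, those of the immunoproteasome subunits are at most 9.12, and those of PSMA2 and PSMA6, whose reads sit mostly in another gene's row, are at most 4.79.

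For PSMA1, PSMA2, PSMA6 and PSMB10 the level depended on how reads were divided between rows. A readthrough gene, whose transcripts run from a neighbour through the proteasome gene, has its own row on the same strand and covers 67.0% of the canonical transcript of PSMA1, 100% of PSMA2, 81.4% of PSMA6 and 56.1% of PSMB10. Their own rows held 11.3%, 0.256%, 3.00% and 4.28% of the reads of both rows. With both rows summed, NC levels were 137, 113, 155 and 23.8 CPM per kb of the canonical transcript. The first 3 then lie within the range of the other alpha subunits, from PSMA4 (33.2) to PSMA7 (288). The sums were added after seeing the data, and they also hold reads on exons of the neighbour.

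**Figure D4:**
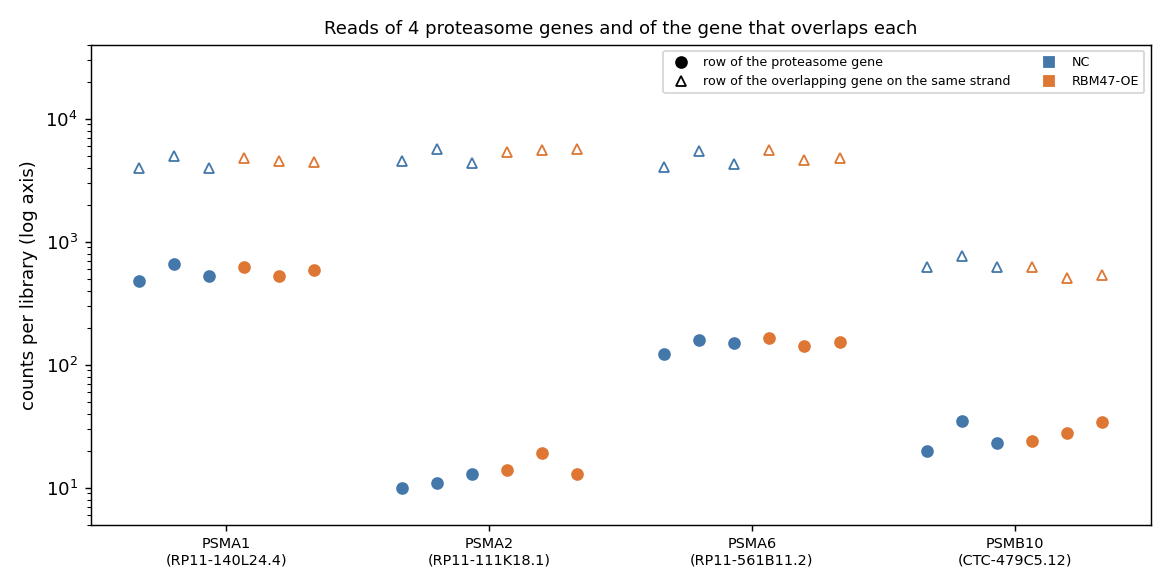
Counts per library on a log axis for the rows of PSMA1, PSMA2, PSMA6 and PSMB10 (filled circles) and for the gene that overlaps each on the same strand (open triangles), NC in blue and RBM47-OE in orange, replicates 1 to 3 from left. In each of the 6 libraries the overlapping row holds more reads, from 7.84 times as many for PSMA1 to 389 times for PSMA2 over the 6 libraries.

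Among the 7 alpha subunits of the 20S core, 1 rose, 0 fell and 6 did not pass, with a median log2 fold change of 0.021. Of all genes tested, 19.1% were called higher and 16.9% lower. PSMA4 had 153, 147 and 136 CPM in NC replicates 1, 2 and 3 and 162, 186 and 223 CPM in RBM47-OE replicates 1, 2 and 3. Every RBM47-OE library was above every NC library, by a log2 fold change of 0.39 ± 0.087 (SE), adjusted p = 0.0013, and the value was 0.18 with the GC offset (adjusted p = 0.08). PSMA3 also did not overlap between groups, with 97.7, 94.2 and 94.9 CPM in NC and 100.5, 101 and 132 CPM in RBM47-OE, most of the difference coming from RBM47-OE replicate 3, and it missed the threshold (0.21 ± 0.085 (SE), adjusted p = 0.05). PSMA2 rested on 10 to 19 counts per library in its own row (0.36 ± 0.42 (SE), adjusted p = 0.55), and its summed rows gave 0.13 ± 0.077 (SE, adjusted p = 0.19). PSMA5 and PSMA7 overlapped between groups, with log2 fold changes of 0.021 and -0.092. PSMA5, of 38.6% GC, was called lower once the GC offset was applied, at -0.30 (adjusted p = 0.0029). Summed with their readthrough rows, PSMA1 and PSMA6 differed by 0.010 (adjusted p = 0.93) and 0.056 (adjusted p = 0.59). In a fit with both the sums and the GC offset, PSMA1, PSMA2 and PSMA6 were all lower, by log2 fold changes of -0.20, -0.21 and -0.23 (adjusted p = 0.028, 0.02 and 0.036). That offset used the GC content of each proteasome gene's own exons, although most of the summed reads sit in the readthrough row. An offset from the GC content of the readthrough genes was not fitted, so these 3 calls depend on that choice.

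Against 19.1% of all genes called higher and 16.9% lower, 0 of the 7 beta subunits rose and 5 fell, with a median of -0.29. With the GC offset, against 6.01% and 8.46% of all genes, 0 rose and 4 fell (median -0.20). The summed level of the beta subunits was 2025 ± 62.6 CPM in NC and 1747 ± 111 CPM in RBM47-OE (SD, n = 3). The mean sum over all genes tested was also lower, at 1021700 CPM in NC and 978970 CPM in RBM47-OE. The structural subunit PSMB3 had 347, 356 and 324 CPM in the NC replicates and 299, 247 and 257 CPM in the RBM47-OE replicates. It fell by 21.8%, with no overlap between groups (-0.35 ± 0.077 (SE), adjusted p = 0.001), and its value was -0.25 with the GC offset (adjusted p = 0.011). PSMB2, another structural subunit, fell from 269, 287 and 279 CPM to 239.7, 195 and 227 CPM (-0.33 ± 0.076 (SE), adjusted p = 0.0015). Its exons hold 44.1% GC, and in the fit with the GC offset it was the called member furthest below 0, at -0.48 ± 0.072 (adjusted p = 0.00021). PSMB4 fell by 12.5% (-0.19 ± 0.069 (SE), adjusted p = 0.031), a call lost when any 1 of the 3 NC libraries or RBM47-OE replicate 2 was left out. It was called with the GC offset (-0.20, adjusted p = 0.019) but not with GC content of the canonical transcript (-0.10, adjusted p = 0.28). PSMB1 overlapped between groups (0.011) and was called lower with the GC offset (-0.20, adjusted p = 0.029) but not with GC content of the canonical transcript (-0.0032, adjusted p = 0.98).

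The catalytic members of this ring were PSMB5, PSMB6 and PSMB7, with chymotrypsin-like, caspase-like and trypsin-like activity. PSMB5, the main target of bortezomib, had 273, 276 and 269 CPM in NC and 241, 206 and 222 CPM in RBM47-OE. It fell by 18.2% (-0.29 ± 0.072 (SE), adjusted p = 0.0029), with the groups apart. PSMB6 had 233, 245 and 217 CPM in NC and 205, 171 and 186 CPM in RBM47-OE, again without overlap, and fell by 19.01% (-0.30 ± 0.076 (SE), adjusted p = 0.0029). For PSMB7 the 296, 285 and 269 CPM in NC overlapped with 269, 248 and 279 CPM in RBM47-OE (-0.094 ± 0.072 (SE), adjusted p = 0.33). With the GC offset the log2 fold changes of PSMB5, PSMB6 and PSMB7 were -0.17, -0.18 and -0.074, and none passed (adjusted p = 0.054, 0.06 and 0.46). PSMB5 passed where GC content came from the canonical transcript (-0.18, adjusted p = 0.041).

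All 3 immunoproteasome subunits were detected at low levels, and PSMB9 fell. PSMB9 had 8.87, 10.1 and 8.83 CPM in NC replicates 1, 2 and 3 and 7.03, 6.88 and 6.48 CPM in RBM47-OE replicates 1, 2 and 3, which did not overlap. It fell by 26.8% (-0.45 ± 0.12 (SE), adjusted p = 0.0065), and the value was -0.47 with the GC offset (adjusted p = 0.0085). Without NC replicate 2, the library with the highest level, the call was lost. PSMB8 rested on 10 to 21 counts per library. Its 0.723, 0.607 and 0.730 CPM in NC lay above the 0.606, 0.374 and 0.345 CPM in RBM47-OE, by little for RBM47-OE replicate 1, and the difference did not pass (-0.62 ± 0.39 (SE), adjusted p = 0.23). PSMB10 had 0.761, 1.01 and 0.800 CPM in NC and 0.727, 0.872 and 1.17 CPM in RBM47-OE in its own row, with overlap between groups (0.089 ± 0.33 (SE), adjusted p = 0.86). Summed with the readthrough row it fell, from 24.3, 23.1 and 22.3 CPM to 19.8, 16.6 and 19.6 CPM (log2 fold change -0.32 ± 0.097 (SE), adjusted p = 0.012). Under the GC offset the summed value was -0.10 (adjusted p = 0.51). That offset used the 63.0% GC of the exons of PSMB10, although most of the summed reads sit in the readthrough row.

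PSMB8 and PSMB9 lie side by side on opposite strands of the MHC region of chromosome 6, at chr6:32840717-32844679 and chr6:32844136-32859851 of GRCh38, and their ends overlap. The antisense gene PSMB8-AS1 overlaps both and had a mean of 28.7 counts, more than PSMB8 itself. It shares 602 exonic bases with PSMB8 but covers 0% of the canonical transcript of PSMB8. Whether strand was used in counting is not given in the sources used here. Reads on the shared bases may therefore not be told apart between PSMB8 and its antisense gene.

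The balance of immunoproteasome to constitutive subunit was compared within each library as a log2 ratio of FPKM. The ratio of PSMB8 to PSMB5 was -9.71, -10.01 and -9.70 in NC and -9.85, -10.27 and -10.49 in RBM47-OE. That of PSMB9 to PSMB6 was -5.92, -5.80 and -5.82 in NC and -6.07, -5.85 and -6.05 in RBM47-OE. For PSMB10 to PSMB7 it was -8.47, -7.99 and -8.27 in NC and -8.38, -8.01 and -7.76 in RBM47-OE. The groups overlapped for all 3 pairs. The differences were -0.39, -0.14 and 0.20, with p = 0.2, 0.2 and 0.5 in exact two-sided permutation tests (adjusted over the 3 pairs 0.3, 0.3 and 0.5), where 3 against 3 libraries cannot go below 0.1. The ratio of PSMB10 to PSMB7 was also taken from CPM, where the own row of PSMB10 gave a difference of 0.18. With the readthrough row added to PSMB10, the CPM difference was -0.23, without overlap between groups (exact permutation p = 0.1).

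Partners of the immunoproteasome in the interferon and MHC class I route were counted for the same libraries. Of 13 genes, 12 were tested and 2 fell (16.7%), close to the 16.9% of all genes called lower. HLA-C, which presents the peptides, fell by 20.6%, and HLA-B fell by 16.5% (adjusted p = 0.0018 and 0.007). Neither passed with the GC offset, where TAP2 and ERAP2 were called lower. These were 2 of 12 genes (16.7%), against 8.46% of all genes called lower in that fit. ERAP2 rested on 18 to 44 counts per library. TAP1, which lies next to PSMB9 and pumps peptides into the endoplasmic reticulum, did not pass (-0.19 ± 0.075 (SE), adjusted p = 0.052).

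**Figure D5:**
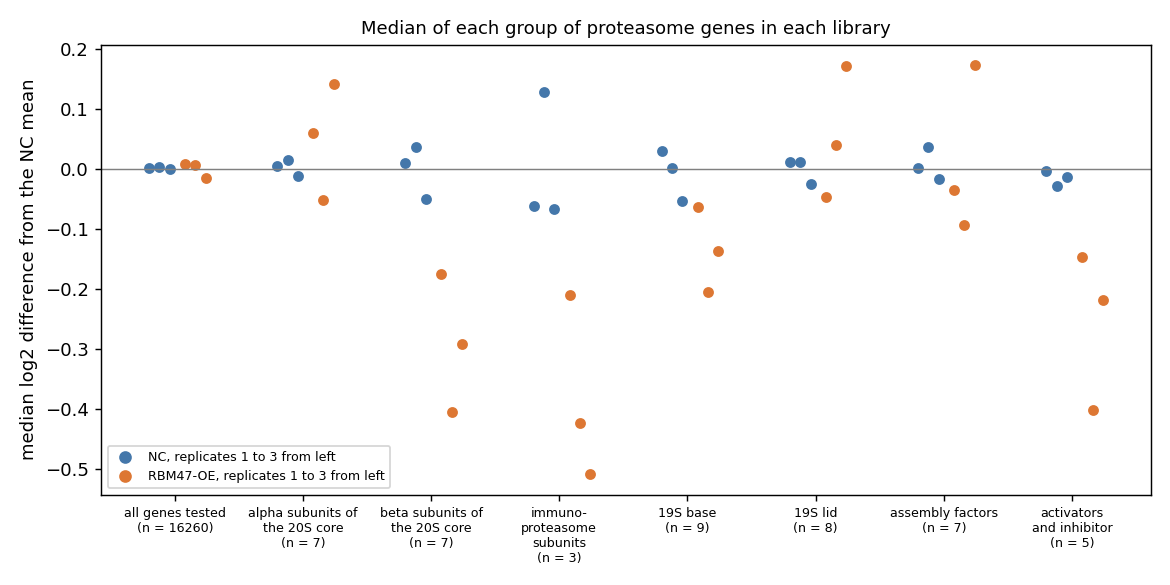
Median over each group of proteasome genes of the log2 difference from the NC mean (vertical axis) in each library, NC in blue and RBM47-OE in orange, with all genes tested on the left. The RBM47-OE medians of the beta subunits lie between -0.41 and -0.18, and those of the alpha subunits and the 19S lid lie on both sides of 0.

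In the 19S cap, 7 of 17 subunits rose and 4 fell, with a median of 0.017, against 19.1% of all genes called higher and 16.9% lower. Under the GC offset 2 rose and 3 fell, against 6.01% and 8.46% of all genes. The 9 subunits of the base, the 6 ATPases with PSMD1, PSMD2 and PSMD4, held 4 that rose and 2 that fell. PSMD1, a scaffold that docks ubiquitin receptors, had 153, 147 and 148 CPM in NC and 175, 207 and 233 CPM in RBM47-OE. The groups stood apart, with RBM47-OE replicate 1 nearest to NC, and the rise was the largest of the 48 genes (0.46 ± 0.082 (SE), adjusted p = 0.0002). PSMC6 rose from 49.2, 48.2 and 52.1 CPM to 58.03, 69.6 and 74.1 CPM (0.43 ± 0.084 (SE), adjusted p = 0.0004), likewise without overlap. PSMC2 had 94.00, 86.7 and 85.4 CPM in NC and 102, 115 and 136 CPM in RBM47-OE (0.41 ± 0.085 (SE), adjusted p = 0.00069). These 3 genes hold 38.2% to 39.7% GC, and with the GC offset their values were 0.16, 0.10 and 0.074, none of which passed (adjusted p = 0.069, 0.30 and 0.46). PSMD1 passed with GC content of the canonical transcript (0.31, adjusted p = 0.0031).

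PSMC1 was the ATPase whose rise was called with and without the offsets. It had 149.8, 135 and 142 CPM in the NC replicates and 164, 178 and 214 CPM in the RBM47-OE replicates, and it rose without overlap (0.38 ± 0.083 (SE), adjusted p = 0.001). Its value was 0.31 with the GC offset (adjusted p = 0.0054). NRDE2, on the opposite strand, covers 83.2% of the canonical transcript of PSMC1, with a mean of 632 counts against 5004 for PSMC1. On the other side, the ATPase PSMC4 fell from 169, 171 and 172 CPM to 139, 134 and 141 CPM (-0.31 ± 0.068 (SE), adjusted p = 0.0011), and PSMD2, the scaffold that binds shuttle factors, from 784, 785 and 736 CPM to 644, 585 and 609 CPM (-0.33 ± 0.072 (SE), adjusted p = 0.0011). Both stayed called with the GC offset, at -0.17 and -0.22 (adjusted p = 0.034 and 0.015). PSMC3 and PSMC5 did not overlap between groups but missed the threshold (-0.17 and -0.16, adjusted p = 0.058 and 0.082). Values of the ubiquitin receptor PSMD4 overlapped (-0.15, adjusted p = 0.11). The 6 ATPases, which form a ring with 1 copy of each, thus had log2 fold changes from -0.31 to 0.43 between the same libraries.

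Of the 8 lid subunits, 3 rose, 2 fell and 3 did not pass, where 19.1% of all genes were called higher and 16.9% lower. PSMD14, the enzyme that cuts ubiquitin chains off the substrate, had 124, 120.2 and 118 CPM in NC and 137, 152 and 181 CPM in RBM47-OE. It rose without overlap (0.37 ± 0.082 (SE), adjusted p = 0.0011), has the lowest GC content of the 48 genes (35.1%), and its value was 0.0055 with the GC offset (adjusted p = 0.97). PSMD7, the partner of PSMD14 in the lid, rose from 111, 113 and 110.3 CPM to 130.1, 138 and 150.3 CPM (0.32 ± 0.072 (SE), adjusted p = 0.0012) and stayed called at 0.19 with the GC offset (adjusted p = 0.022). A long noncoding gene on the opposite strand covers 51.6% of the canonical transcript of PSMD7, with far fewer counts. PSMD12 rose by 15.9% (0.21 ± 0.081 (SE), adjusted p = 0.042), mostly through RBM47-OE replicate 3 (193 CPM, against 151 and 157 in the other two), and its call was lost when any 1 of the NC libraries or RBM47-OE replicate 3 was left out. It is the called gene whose direction turned with the GC offset (-0.14, adjusted p = 0.14).

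PSMD8 fell from 306, 317 and 295 CPM in NC to 253, 229 and 249 CPM in RBM47-OE, with a clear gap between groups (-0.33 ± 0.071 (SE), adjusted p = 0.00089). PSMD3 fell by 15.1% (-0.24 ± 0.068 (SE), adjusted p = 0.0085). Both hold 55.0% GC, and with the GC offset they stood at -0.17 and -0.076 without passing (adjusted p = 0.051 and 0.40). PSMD6, PSMD11 and PSMD13 did not pass, at 0.10, 0.017 and -0.13. PSMD6 was called lower with the GC offset (-0.17, adjusted p = 0.047) and not with GC content of the canonical transcript (-0.018, adjusted p = 0.88).

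Of the 7 assembly factors, 1 rose (14.3%) and 2 fell (28.6%), against 19.1% and 16.9% of all genes tested, and with the GC offset 0 rose and 1 fell (6.01% and 8.46% of all genes). PSMD5, PSMD9 and PSMD10 are chaperones that hold ATPases of the base before the cap is complete. PSMD5 rose from 46.8, 50.2 and 48.6 CPM to 53.8, 63.4 and 64.5 CPM (0.32 ± 0.08 (SE), adjusted p = 0.0031), with a value of 0.030 with the GC offset (adjusted p = 0.79). PSMD9 had 47.5, 46.5 and 43.5 CPM in NC and 37.2, 38.6 and 39.8 CPM in RBM47-OE and fell by 15.9% (-0.25 ± 0.078 (SE), adjusted p = 0.015). It stayed called at -0.20 with the GC offset (adjusted p = 0.039) but not with GC content of the canonical transcript (-0.16, adjusted p = 0.097). Without an offset, the call of PSMD9 was lost when NC replicate 1 or NC replicate 2 was left out. PSMD10, also known as gankyrin, did not overlap between groups and missed the threshold (0.17 ± 0.074 (SE), adjusted p = 0.074). The chaperones PSMG1 to PSMG4 guide the alpha ring. PSMG3 had 45.7, 53.6 and 48.6 CPM in NC and 40.8, 44.1 and 40.4 CPM in RBM47-OE, a narrow gap, and fell by 15.4% (-0.24 ± 0.081 (SE), adjusted p = 0.022). With 59.6% GC, it stood at -0.041 with the GC offset (adjusted p = 0.76). Its call was lost without NC replicate 2, NC replicate 3 or RBM47-OE replicate 3. PSMG1, PSMG2 and PSMG4, the member of this group with the lowest FPKM, overlapped between groups (0.028, 0.071 and -0.065). PSMG1 and its ring partner PSMG2 thus did not differ detectably at this depth.

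The activators open the gate of the core without ATP. PSME1 and PSME2 form 1 ring that interferon raises together with the immunoproteasome, and their genes lie close together on chromosome 14, with 4395 bases between them. PSME1 had 115, 116 and 125 CPM in NC and 103, 89.8 and 85.7 CPM in RBM47-OE. It fell by 21.9% (-0.36 ± 0.076 (SE), adjusted p = 0.00085) and stayed called at -0.20 with the GC offset (adjusted p = 0.025). PSME2 had 90.9, 96.4 and 86.2 CPM in NC and 87.4, 81.8 and 83.8 CPM in RBM47-OE, and RBM47-OE replicate 1 overlapped with NC (-0.11 ± 0.072 (SE), adjusted p = 0.23). The difference between the 2 genes' changes was not tested.

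PSME3 forms the nuclear ring. It fell from 191, 184 and 188 CPM to 144, 135 and 161 CPM, with the groups apart (-0.35 ± 0.074 (SE), adjusted p = 0.0007), and stayed called at -0.26 with the GC offset (adjusted p = 0.0078). PSME4, a large nuclear activator linked to acetylated histones, rose from 86.1, 80.6 and 82.2 CPM to 88.9, 104 and 120.3 CPM (0.33 ± 0.085 (SE), adjusted p = 0.0035), RBM47-OE replicate 1 lying just above NC. With 40.3% GC its value was 0.050 with the GC offset (adjusted p = 0.66). PSMF1, an inhibitor of the core in vitro, had 98.8, 110.2 and 102 CPM in NC and 93.4, 76.3 and 84.2 CPM in RBM47-OE and fell by 18.3% (-0.29 ± 0.078 (SE), adjusted p = 0.0049), with -0.23 with the GC offset (adjusted p = 0.021). Leaving out NC replicate 2, its highest library, ended that call in the fit without an offset.

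PSMC3IP, which works with the recombinase DMC1 in meiosis and is no proteasome subunit, had 20.2, 20.7 and 21.97 CPM in NC and 19.1, 22.4 and 18.3 CPM in RBM47-OE, with overlap (-0.072 ± 0.098 (SE), adjusted p = 0.61). MLX on the opposite strand covers 57.2% of its canonical transcript. PSME3IP1, a nuclear protein that binds the PSME3 ring, was at 0.044 (adjusted p = 0.70).

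TMM scaling does not hold summed CPM equal between libraries. The mean sum over all genes tested was 1021700 CPM in NC and 978970 CPM in RBM47-OE. Over all 46 genes the summed level was 7228 ± 186 CPM in NC and 6769 ± 306 CPM in RBM47-OE (SD, n = 3). RBM47-OE replicate 3, at 7070.5 CPM, lay above NC replicate 3 at 7015 CPM, so the sums of the groups overlapped. The groups did not overlap for 12 genes that were higher and 19 that were lower in RBM47-OE, against 23.2% and 23.4% of all genes tested.

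Proteasome partners outside the PSM symbols were counted in the same fit, and of 13 such genes 6 rose and 1 fell, against 19.1% and 16.9% of all genes tested. UCHL5, the deubiquitinase of the cap, rose (0.53 ± 0.09 (SE), adjusted p = 0.00012), as did ZFAND5, an activator of the particle (0.27, adjusted p = 0.0045), and ECPAS, a proteasome adaptor (0.24, adjusted p = 0.014). ADRM1, the ubiquitin receptor that docks UCHL5 at the cap, fell (-0.32 ± 0.069 (SE), adjusted p = 0.00086). Under the GC offset, where 6.01% of all genes were called higher and 8.46% lower, 0 of the 13 rose and 2 fell, the lid subunit SEM1 and POMP, the factor that matures the core (-0.30 and -0.20, adjusted p = 0.0047 and 0.043).

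Of the 9 genes on the route from NFE2L1 to proteasome genes, 2 rose and 4 fell, where 19.1% of all genes rose and 16.9% fell. NFE2L1 itself fell (-0.20 ± 0.068 (SE), adjusted p = 0.027), as did MAFF and MAFK, its small MAF partners (-0.49 and -0.30, adjusted p = 8e-05 and 0.0066). NGLY1, which removes its sugars, rose (0.35, adjusted p = 0.0032), and so did NFE2L2 (0.30, adjusted p = 0.021). NFE2L2 had 59.7, 59.6 and 57.5 CPM in NC and 55.3, 85.4 and 77.8 CPM in RBM47-OE, so that RBM47-OE replicate 1 lay below every NC library and the rise came from the other two. Under the GC offset, where 6.01% of all genes were called higher and 8.46% lower, MAFF and VCP were lower and MAFG was higher. NFE2L1 then stood at -0.017 (adjusted p = 0.88).

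Of 4 ubiquitin genes and E1 enzymes counted, 1 rose and 2 fell, against 19.1% of all genes called higher and 16.9% lower. Both E1 enzymes, which activate ubiquitin, were called, in opposite directions. UBA1 fell by 20.03% (adjusted p = 0.0023), and UBA6 rose by 29.3% (adjusted p = 0.00098). The ubiquitin gene UBB fell by 18.9% (adjusted p = 0.0028), and the remaining gene did not pass. Among 10 shuttle factors and VCP cofactors (19.1% of all genes higher, 16.9% lower) 1 rose (UBQLN1, 0.26) and 4 fell, led by NPLOC4 (-0.30). With the GC offset, where 6.01% of all genes were called higher and 8.46% lower, none of the 4 ubiquitin genes and E1 enzymes passed. In that fit 2 of the 10 factors fell, NPLOC4 and UBQLN2.

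Complexes built on the same plan as the lid were counted against the same 19.1% of all genes higher and 16.9% lower. In the COP9 signalosome 2 of 10 subunits rose, COPS2 and COPS4 (0.43 and 0.40), and 2 fell, GPS1 and COPS9 (-0.34 and -0.30), 20% each way and near those shares. In eIF3, the initiation factor complex, 3 of 13 rose, led by EIF3E (0.38), and 7 fell, led by EIF3B (-0.35). With the GC offset the counts were 1 higher and 0 lower for COP9, and 0 higher and 5 lower for eIF3, where 6.01% of all genes were higher and 8.46% lower.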

How the data were processed

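Libraries from HCT116 cells, 3 NC and 3 RBM47-OE, were analysed without exclusions. According to the paper's methods the authors trimmed reads with FASTX-Toolkit 0.0.13, aligned them to GRCh38 with HISAT2 and kept uniquely mapped reads. The deposited counts are whole reads per gene without normalization, and the deposited FPKM values were divided by gene length and library size by the authors. The counting tool, its annotation and its use of strand are not given in the sources used here.

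Counts were tested with edgeR 4.0.16 in R 4.3.3 (filterByExpr with a minimum count of 10, TMM, quasi-likelihood test, condition as the only term, Benjamini-Hochberg over 16260 genes). CPM were scaled with the TMM factors. The GC offset was a loess curve with a span of 0.3 in each library. Gene models came from GENCODE 44 and promoters from RefSeq. The standard error is the log2 fold change over the square root of the F statistic. Depth was 26792409 to 35477983 counts, so genes under about 20 counts per library carried wide errors.

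Members, classes and related lists were chosen with earlier results of these data known. Some genes of the marker and related lists are not reported here. Genes named were, in each class, those called with or without the GC offset and those with the highest and lowest FPKM, with the catalytic subunits and PSME1, PSME2 and PSMC3IP, and in related lists at most 3 each way. The remaining members were named to account for every one, outside this rule and after their values were seen, as were TAP1, TAP2, ERAP2, SEM1, POMP, VCP, MAFG and UBQLN2. Same-numbered NC and RBM47-OE libraries did not deviate together. Alternatives were DESeq2 1.42.0, limma 3.58.1 on log2(FPKM + 1) and log2(FPKM + 0.1), RLE factors, library totals, other count filters, length and GC offsets, a replicate block and each library left out. On simulated counts of 16260 genes for RBM47-OE against NC, edgeR recovered 196 of 200 genes changed 2-fold with 18 false calls. With a simulated GC trend it made 2461 false calls without the GC offset and 9 with it. The simulated trend was linear and the same in every RBM47-OE library, a form that the offset is built to remove. Changes under 2-fold, such as those called here, were not simulated. These counts therefore do not show which calls in the data are false or how many small changes are found.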

Additional observations from a re-analysis of the deposited data

How the results depend on the processing

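Of the 25 calls, 25 kept call and direction in DESeq2, with and without the filter on low counts, with RLE factors, with at least 10 counts in every library and with the readthrough rows added. No filter kept 24, the length offset and library totals 22 each, and limma 20 with either pseudocount. The GC offset kept 12, as did GC content of the canonical transcript, and 24 kept their direction in both. The alternatives with readthrough rows, without the 4 genes they touch and with canonical GC content were added after seeing the data. Leaving out 1 library kept 18 (NC replicate 2) to 25 (RBM47-OE replicate 1). Among these alternatives, shares of all genes called are given above only for the GC offset and for canonical GC content. The other counts of calls below stand without that comparison. Single-gene values for genes under about 20 counts per library are limited by depth.

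With the GC offset the counts of higher and lower genes, against 10 and 15, were 2 and 13 for the proteasome genes. The 19S cap had 2 higher, and the 20S core, the assembly factors and the activators with the inhibitor 0, with 1 assembly factor lower. The median of the 20S core moved from -0.045 to -0.19. With GC content of the canonical transcript 3 proteasome genes were higher and 10 lower, the 19S cap held 3 higher and 2 lower, the other groups 0 higher, and 0 assembly factors were lower. The cause was not tested. Members whose direction turned with the GC offset were PSMA1 -0.20, PSMA3 -0.12, PSMA5 -0.30, PSMA6 -0.27, PSMB1 -0.20, PSMC3 0.0016, PSMD11 -0.058, PSMD12 -0.14, PSMD6 -0.17, PSMD10 -0.15, PSMG1 -0.075, PSMG2 -0.080, PSMG4 0.031 and PSME3IP1 -0.018. With GC content of the canonical transcript they were PSMA1 -0.24, PSMA3 -0.063, PSMA5 -0.32, PSMA6 -0.14, PSMA7 0.0037, PSMB1 -0.0032, PSMD11 -0.056, PSMD12 -0.14, PSMD6 -0.018, PSMD10 -0.11, PSMG1 -0.20, PSMG2 -0.17, PSMG4 0.049 and PSME3IP1 -0.035.

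The replicate number as a block kept 23 of the 25 calls, with 9 proteasome genes higher and 14 lower, and PSMB4 and PSMD12 were lost. PSMA1 stood at -0.0031 with the replicate block. The numbers gave no pairing, since deviations of same-numbered libraries correlated at -0.06, -0.01 and -0.02. With both the GC offset and the block, 11 calls were kept, 2 proteasome genes were higher and 11 lower, the 19S cap had 2 higher and 1 lower, 1 assembly factor was lower, the 20S core, assembly factors and activators had 0 higher, and the median of the 20S core was -0.19. In that blocked fit the turned values were PSMA1 -0.21, PSMA3 -0.12, PSMA5 -0.30, PSMA6 -0.28, PSMB1 -0.21, PSMC3 0.00057, PSMD11 -0.059, PSMD12 -0.14, PSMD6 -0.17, PSMD10 -0.15, PSMG1 -0.079, PSMG2 -0.085, PSMG4 0.029 and PSME3IP1 -0.018.

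The 20S core had 2 higher genes in place of 1 with RLE factors, at least 10 counts in every library, the length offset, library totals and no filter, the added gene being PSMA3. Assembly factors had 2 higher with the length offset, library totals and both limma fits, and 1 lower with the length offset but 0 with the other 3. On the log2(FPKM + 1) scale the median of the immunoproteasome subunits was -0.072, since a pseudocount of 1 exceeds the FPKM of PSMB8. The length offset turned PSMA5 -0.011, PSMA6 -0.034, PSMD11 -0.056, PSMD6 -0.014 and PSMG2 -0.050, and limma turned PSMG4, to 0.0020 and 0.0031. Adding the readthrough rows made 2 immunoproteasome subunits lower and turned PSMB10 to -0.32. It also turned the difference in the ratio of PSMB10 to PSMB7, taken from CPM, to -0.23. A pseudocount of 1 FPKM turned the ratio of PSMB8 to PSMB5 to 0.15.

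Leaving out 1 library in turn gave 9 to 13 proteasome genes higher and 9 to 18 lower, 3 to 7 lower in the 19S cap, 0 to 1 lower immunoproteasome subunits, 1 to 2 higher in the 20S core, and 1 to 2 higher and 0 to 2 lower assembly factors. Log2 fold changes that crossed 0 ranged from -0.072 to 0.085 for PSMA1, from -0.028 to 0.056 for PSMA5, from -0.030 to 0.089 for PSMA6, from -0.014 to 0.024 for PSMB1, from -0.11 to 0.24 for PSMB10, from -0.028 to 0.045 for PSMD11 and from -0.083 to 0.091 for PSMG1.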

Other observations

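The count table also holds 12 PSM pseudogene rows and 6 rows of long noncoding genes named after PSM genes, which entered none of the comparisons. Only 1 pseudogene, PSMD10P2, reached a mean of 10 counts, at 13.7 per library. PSMA3-AS1 had the highest mean of the noncoding rows, 282.5 counts, followed by PSMG3-AS1 with 73.7.

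The 46 genes and the 2 that share their symbols lie on 17 chromosomes, with 8 on chromosome 17. PSMD4 and PSMB4 are 132081 bases apart on chromosome 1, and their log2 fold changes were -0.15 and -0.19.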
